A study of Mus musculus with 6 samples.

Results

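The genes that write and remove DNA methylation were described in mouse embryonic fibroblasts (MEF) on day 3 of reprogramming, with and without Rnf20. The group was defined by symbol and comprised Dnmt1, Dnmt3a, Dnmt3b, Dnmt3l, Uhrf1, Tet1, Tet2, Tet3, Tdg and Gadd45a, and all 10 were present among the 16982 genes of the deposited count table. RNA was sequenced from 3 wild type (WT) and 3 Rnf20-/- (KO) samples of reprogrammable cells of the C57BL/6 strain background. Rnf20 encodes the ubiquitin ligase that monoubiquitinates histone H2B, and the study compared the genotypes to ask how its loss affects the early stage of reprogramming. The cells were infected with retroviruses for the 4 factors OCT4, SOX2, C-MYC and KLF4 (OSKM), which convert fibroblasts into induced pluripotent stem cells. KO cells carried loxP-flanked Rnf20 and a ubiquitously expressed Cre that is activated by 4-OH tamoxifen, so deletion was not restricted to a cell type. The methods describe 4-OH tamoxifen for the KO, while the labels list all 6 samples as untreated. Whether the WT cells received the drug is not stated, so the drug and the genotype cannot be told apart here. The methods also describe replating on feeder MEF, whose RNA would be part of the samples if feeders were present at day 3.

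In mammals DNA methylation is placed on cytosines that precede guanines. New marks are written by DNMT3A and DNMT3B with the cofactor DNMT3L, and they are copied onto the daughter strand at replication by DNMT1, which UHRF1 recruits to hemimethylated sites. TET enzymes oxidize methylcytosine, and oxidized bases are excised by TDG and replaced by base excision repair. Loss of methylation at pluripotency genes is part of reprogramming.

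The libraries held between 20545442 and 21746898 counts, and 13386 genes, 9 of the members among them, passed the filter on low counts. Rnf20 was at 107, 107 and 106 CPM (counts scaled to the library total, TMM-normalized) in WT and at 18.7, 18.5 and 16.4 CPM in KO, a log2 fold change of -2.57 ± 0.0812 (SE, n = 3 per genotype; adjusted p = 0.000163). Adjusted p-values come from the quasi-likelihood test of edgeR, adjusted by the Benjamini-Hochberg method over all genes tested, and a change was called at an adjusted p under 0.05. Nothing in the labels says whether the 3 samples of a genotype came from separate animals or cultures. The p-values measure the spread between these samples, part of which may be technical. KO replicate 3 stood apart from the other KO libraries: the chi-square per gene was 92.4 and 101 against KO replicates 1 and 2, compared with 8.57 between those 2 and 6.04 to 8.92 between WT libraries. The Y-linked gene Ddx3y had 0 counts in KO replicates 1 and 3 and between 1990 and 2686 counts in the other 4 libraries. KO replicate 2 therefore held Y-bearing cells that KO replicates 1 and 3 lacked, so the 3 were not repeats of 1 culture. The KO group mixed libraries with and without these reads, and every WT library had them. As these are bulk samples, fewer cells of a type and less RNA per cell cannot be told apart.

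Both maintenance genes, both catalytic de novo methyltransferases and 1 of the 3 TET genes fell in Rnf20-/- cells, and Gadd45a rose. Of the 9 members tested, 5 were lower and 1 was higher in KO, against 16.6% of all genes tested called lower and 16.4% called higher (33.0% in either direction). The remaining 3 members, Tet2, Tet3 and Tdg, did not pass the test, and Dnmt3l was below the filter. The median log2 fold change was -0.60 over the 9 members and -0.0003 over all genes tested. The KO libraries were all below the WT libraries for 6 members and all above for 1, compared with 28.2% and 26.6% of all genes tested (54.8% in either direction). Under the thresholds of the study's methods (adjusted p under 0.01, absolute log2 fold change over 1, mean FPKM over 1) edgeR's quasi-likelihood test called 0 members, against 3.59% of all genes, and the adjusted p under 0.01 alone was met by 0 members, against 9.88%. At an unadjusted p under 0.05 it gave 7 of the 9 members, against 45.6% of all genes. With DESeq2 and with edgeR's exact test 3 members (Dnmt1, Uhrf1 and Tet1) passed the study's thresholds, against 7.34% and 7.27% of all genes.

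**Figure D1:**
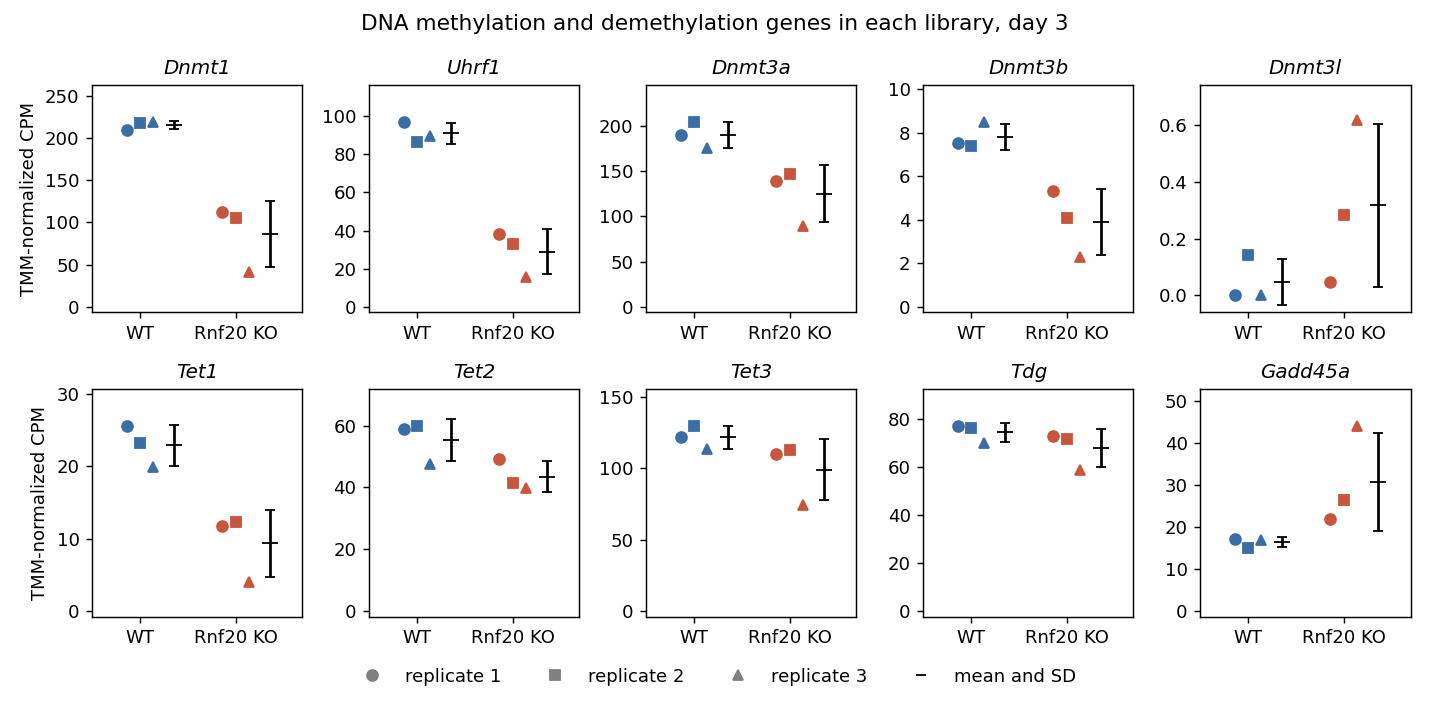
Level of each of the 10 genes in each library. The y axes are TMM-normalized CPM, each panel with its own scale, points are single libraries of WT (left) and Rnf20 KO (right), and bars are the mean and SD of 3 libraries. KO replicate 3 is the lowest of the 6 libraries for 8 of the 9 tested genes and the highest for Gadd45a.

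Dnmt1 (ENSMUSG00000004099; GRCm38, chr9:20907209-20959888, minus strand), the maintenance methyltransferase, was at 210, 217 and 219 CPM in WT replicates 1 to 3 and at 112, 105 and 40.8 CPM in KO replicates 1 to 3. The KO libraries lay below every WT library, and KO replicate 3 was well below the other KO libraries. The mean went from 215 ± 4.81 CPM to 85.9 ± 39.3 CPM (SD, n = 3), 39.9% of WT, and Dnmt1 fell by 1.33 on the log2 scale (SE 0.347, adjusted p = 0.0288). Relative to the WT mean, the log2 CPM differences of the KO libraries were -0.94, -1.04 and -2.40. Without KO replicate 3 the log2 fold change was -0.99 (adjusted p = 1.30e-06), and with any of the WT libraries left out the call was lost (adjusted p = 0.0804 to 0.0924).

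Uhrf1 (ENSMUSG00000001228; chr17:56303321-56323486, plus strand), which recognises hemimethylated DNA and brings DNMT1 to it, was at 97.0, 86.2 and 89.8 CPM in WT and at 38.0, 32.9 and 15.5 CPM in KO. The groups did not overlap, and KO replicate 3 was again the lowest. Uhrf1 fell to 31.6% of the WT mean, and the log2 fold change was -1.66 ± 0.303 (SE, n = 3 per genotype; adjusted p = 0.0102). This was the largest absolute log2 fold change among the 9 tested members, and Uhrf1 was the only one whose call was kept with each single library left out (adjusted p = 1.67e-06 to 0.0479). The difference between the log2 fold changes of Uhrf1 and Dnmt1 was not tested.

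The promoter windows of these maintenance genes are shown because they were the members with a letter match to the E2F site, a motif shared by many genes of DNA replication. RefSeq promoter windows of GRCm38.p6, from 250 bases before to 50 bases after each annotated start, were available for all 10 members (17 windows). The words TTTCCCGC, TTTGGCGC, TTTCGCGC and TTTGCCGC were searched on both strands, and at least 1 of them was present in 2.26% of all 32851 windows, in 1 window of Dnmt1 and in 1 window of Uhrf1. TTTCGCGC alone was in 0.323% of all windows. In the stretches below, 5′ to 3′ on the strand of the gene, capitals mark that word, which in Dnmt1 is read on the opposite strand as GCGCGAAA.
Dnmt1, chr9:20952824-20952853, minus strand, -230 to -201 from the start: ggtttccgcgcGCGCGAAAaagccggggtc
Uhrf1, chr17:56304117-56304146, plus strand, -196 to -167 from the start: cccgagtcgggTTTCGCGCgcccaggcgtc

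The Dnmt1 stretch overlaps exons of the annotated transcripts Dnmt1-201 and Dnmt1-205, in the former a UTR, and the same window also held TTTGGCGC at position 34 after the start. The Uhrf1 stretch lies inside the transcripts Uhrf1-201 and Uhrf1-203 and overlaps no annotated exon. The word TTTGAA, the core of the CHR element of many mitotic genes, was in windows of Dnmt1 and Dnmt3b and in 17.9% of all windows, and CCAAT was in windows of 5 members and in 37.4% of all windows. Each match is a description of letters in these windows. The windows with the most CpG dinucleotides held 57 in Tet2, 47 in Dnmt3a, 33 in both Dnmt1 and Uhrf1, 30 in Dnmt3b, 26 in Tdg, 22 in Tet3, 17 in Tet1 and 14 in Gadd45a, whereas the richest window of Dnmt3l held 6. The median of all windows was 7.

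Dnmt3a (ENSMUSG00000020661; chr12:3806007-3914443, plus strand), a de novo methyltransferase, was at 190, 205 and 176 CPM in WT and at 140, 147 and 89.1 CPM in KO. KO replicates 1 and 2 were close to each other and below every WT library, with KO replicate 3 lower again. Dnmt3a fell to 65.9% of the WT mean, a log2 fold change of -0.60 ± 0.187 (SE, n = 3 per genotype; adjusted p = 0.0477), which is close to the threshold. Without KO replicate 3 it was -0.41 (adjusted p = 0.000899). The call was lost without KO replicate 1 (adjusted p = 0.0612) and without any of the WT libraries (up to 0.145). Its exons overlap those of Dnmt3aos on the other strand, which is absent from the count table.

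Dnmt3b (ENSMUSG00000027478; chr2:153649450-153687730, plus strand), the other de novo enzyme, was at 7.51, 7.40 and 8.49 CPM in WT and at 5.30, 4.08 and 2.29 CPM in KO. The groups did not overlap at this low level. Dnmt3b fell to 49.8% of the WT mean, and the log2 fold change was -1.004 ± 0.298 (SE, n = 3 per genotype; adjusted p = 0.0419). Without KO replicate 3 it was -0.73 (adjusted p = 0.00648). The call was lost without KO replicate 2 (adjusted p = 0.084) and without any of the WT libraries (up to 0.135).

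Dnmt3l (ENSMUSG00000000730; chr10:78041947-78063622, plus strand), the catalytically inactive cofactor of the de novo enzymes, had 0, 3 and 0 counts in WT and 1, 6 and 13 counts in KO, so the groups overlapped. The summed counts were 3 in WT and 20 in KO, a depth-adjusted ratio of 6.68 with an exact 95% interval of 1.98 to 35.1 that covers counting error only. Without the filter on low counts its adjusted p was 0.192, so a change between genotypes was not detectable at this depth. Its exons overlap those of Aire on the opposite strand, which had 1 count in KO replicate 2 and 0 in the other libraries.

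Among the TET dioxygenases, Tet1 (ENSMUSG00000047146; chr10:62804570-62908996, minus strand) was at 25.5, 23.3 and 19.9 CPM in WT and at 11.8, 12.2 and 3.95 CPM in KO. The first 2 KO libraries were nearly equal, and KO replicate 3 was far below them. Tet1 fell to 40.8% of the WT mean, and the log2 fold change was -1.29 ± 0.387 (SE, n = 3 per genotype; adjusted p = 0.0428). It was -0.93 without KO replicate 3 (adjusted p = 0.000161), and the call was lost with any other single library left out (adjusted p = 0.0516 to 0.123). The FPKM (fragments scaled to transcript length and library total) of Tet1 made by the authors were 3.02, 2.24 and 1.93 in WT and 1.90, 1.53 and 0.328 in KO. The KO mean was 52.3% of WT on the FPKM scale. The ratio of FPKM to counts per kilobase scaled by the library total alone, without TMM factors, varied for Tet1 from 1.25 to 2.40 between libraries, compared with 1.05 to 1.08 for Dnmt3a.

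Tet2 (ENSMUSG00000040943; chr3:133463679-133545139, minus strand) was at 58.8, 59.8 and 47.5 CPM in WT and at 49.3, 41.4 and 39.7 CPM in KO. WT replicate 3 lay below KO replicate 1, so the groups overlapped. The exons of Tet2 overlap those of Gm42567 on the other strand, which is absent from the count table. The log2 fold change was -0.35 ± 0.126 (SE, n = 3 per genotype; adjusted p = 0.0725), which did not pass the test, and it passed with KO replicate 1 left out (adjusted p = 0.0485).

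Tet3 (ENSMUSG00000034832; chr6:83362373-83459084, minus strand) was at 122, 130 and 114 CPM in WT and at 110, 113 and 74.5 CPM in KO. The highest KO library was just under the lowest WT library, and only KO replicate 3 stood clearly below. The log2 fold change of -0.30 ± 0.162 (SE, n = 3 per genotype) did not pass the test (adjusted p = 0.196), and it was -0.13 without KO replicate 3 (adjusted p = 0.135).

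Tdg (ENSMUSG00000034674; chr10:82629828-82650799, plus strand), the glycosylase that removes the oxidized bases made by TET enzymes, was at 77.2, 76.5 and 70.0 CPM in WT and at 73.0, 71.8 and 58.7 CPM in KO. The groups overlapped, with KO replicate 3 the lowest. The log2 fold change was -0.14 ± 0.103 (SE, n = 3 per genotype; adjusted p = 0.338), and -0.04 without KO replicate 3 (adjusted p = 0.634). Its exons overlap those of Glt8d2 on the opposite strand, which was between 3.27 and 6.78 CPM in all libraries, and whether the counting used strand is not stated.

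Gadd45a (ENSMUSG00000036390; chr6:67035096-67037457, minus strand), a stress-induced gene and p53 target that has been linked to repair-based demethylation, was at 17.2, 15.0 and 16.9 CPM in WT and at 21.9, 26.4 and 44.1 CPM in KO. Every KO library was above every WT library, and KO replicate 3 was the highest. Gadd45a rose to 188% of the WT mean, and the log2 fold change was 0.91 ± 0.256 (SE, n = 3 per genotype; adjusted p = 0.0356). Without KO replicate 3 the value was 0.56 (adjusted p = 0.00193). The call was lost without KO replicate 2 (adjusted p = 0.0509) and without any of the WT libraries (up to 0.121). The exons of Gadd45a overlap those of E230016M11Rik on the other strand, which is absent from the count table.

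**Figure D2:**
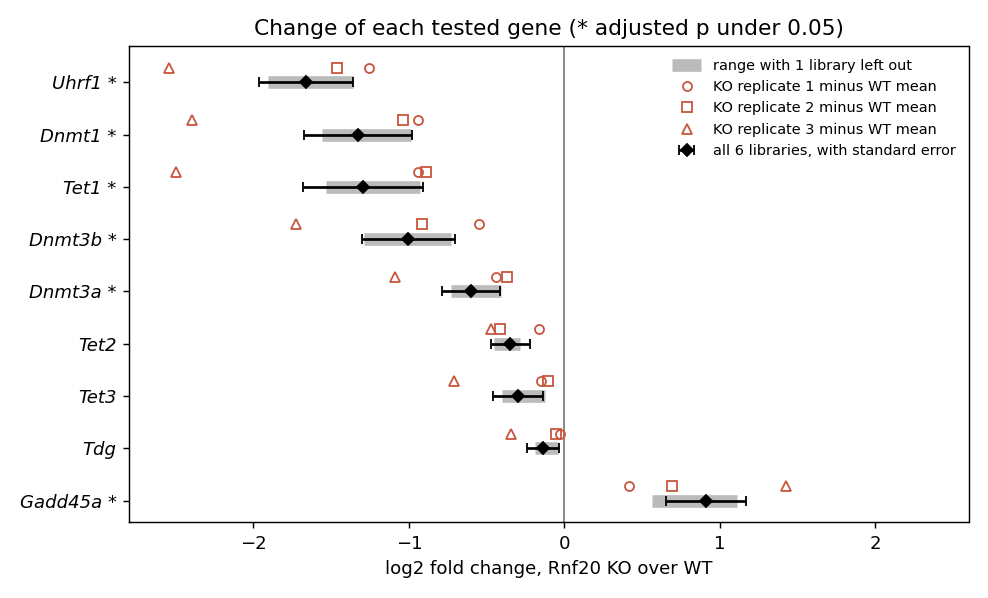
Log2 fold change of KO over WT for the 9 tested genes. Diamonds and bars are the estimate and standard error from 6 libraries, grey bands the range with 1 library left out, and open symbols the log2 CPM of each KO library minus the WT mean. No band crosses 0, and KO replicate 3 (triangles) lies farthest from 0 for each gene.

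Leaving out KO replicate 3 kept the same 5 members lower and Gadd45a higher, when 24.2% of all genes were called lower and 23.9% higher. With WT replicate 1, 2 or 3 left out, Uhrf1 was the only member that passed the test, when 14.3%, 11.9% and 10.3% of all genes did. With a term for Ddx3y reads beside the genotype, 0 of the 9 members passed edgeR's quasi-likelihood test, while the number of all genes called dropped from 2218 lower and 2195 higher to 29 and 80 (0.814%). The genotype effect in that fit rested on KO replicate 2 alone, the only KO library with Ddx3y reads. Its log2 fold changes were -1.04 for Dnmt1 and -1.47 for Uhrf1. KO replicate 2 minus the WT mean gave -1.04 and -1.47 in log2 CPM. With a single KO library behind the genotype effect, the lost calls cannot show whether Ddx3y status has a part in the members' values, which was not tested.

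Per length, the members formed an order in WT that FPKM allowed to be compared. Dnmt1 was highest at 31.9 ± 0.927 FPKM (SD, n = 3), followed by Tdg at 26.7 ± 1.09, Uhrf1 at 25.4 ± 1.56 and Dnmt3a at 20.8 ± 1.55 FPKM. Gadd45a followed at 14.2 ± 1.15 FPKM, Tet3 at 11.1 ± 0.717, Tet2 at 6.30 ± 0.757, Tet1 at 2.39 ± 0.561 and Dnmt3b at 1.84 ± 0.170 FPKM. Of these neighbours, Tdg and Uhrf1 overlapped in their libraries, as did Tet1 and Dnmt3b, and the others did not.

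In KO, Gadd45a had the highest mean at 27.9 ± 12.3 FPKM (SD, n = 3), followed by Tdg at 24.8 ± 2.70 FPKM. In FPKM that order rested on KO replicate 3 (41.8 against 21.7 FPKM). Tdg was above Gadd45a in KO replicate 1 (26.1 against 18.8 FPKM) and in KO replicate 2 (26.6 against 23.0 FPKM). The ratio of FPKM to counts per kilobase in KO replicate 2 was 1.35 for Tdg and 1.10 for Gadd45a. The order in that library therefore depends on the measure. Dnmt3a at 13.4 ± 3.31 FPKM and Dnmt1 at 12.7 ± 5.57 FPKM overlapped each other, followed by Tet3 at 8.96 ± 1.88, Uhrf1 at 8.43 ± 3.38 and Tet2 at 5.02 ± 0.543 FPKM, each overlapping its neighbour. Tet1 was at 1.25 ± 0.821 FPKM and Dnmt3b at 0.904 ± 0.354 FPKM, and these also overlapped. Dnmt3l had no deposited FPKM.

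Summed over Dnmt1, Dnmt3a and Dnmt3b, methyltransferase RNA was at 53.7, 56.1 and 53.9 FPKM in WT and at 32.7, 31.8 and 16.4 FPKM in KO. All KO sums were below all WT sums (exact permutation test, two-sided, p = 0.1, the smallest value that 3 against 3 allows). Dnmt1 contributed 57.5%, 57.3% and 60.7% of that sum in WT and 50.3%, 48.2% and 38.4% in KO, and the mean share of Dnmt3a was 38.1 ± 2.25% in WT and 51.0 ± 6.51% in KO (SD, n = 3). Both shares were separated between genotypes at p = 0.1 (exact permutation test, two-sided; 0.3 after Benjamini-Hochberg adjustment over the 6 shares), which cannot pass 0.05 in this design.

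The summed FPKM of the TET genes was 20.8, 20.8 and 17.8 in WT and 17.4, 16.2 and 12.1 in KO, again without overlap (exact permutation test, two-sided, p = 0.1). Tet3 contributed 56.2 ± 2.91% of the TET sum in WT and 58.7 ± 3.62% in KO (exact permutation test, two-sided, p = 0.6). The difference of 2.41 percentage points was 0.79 without WT replicate 1, 3.62 without WT replicate 3 and 0.32 without KO replicate 2. Tet1 contributed 12.03 ± 2.12% in WT and 7.70 ± 4.38% in KO (exact permutation test, two-sided, p = 0.3), a difference of -4.33 percentage points that was -1.84 without KO replicate 3. By CPM per kilobase the shares of Tet1 were 9.72% and 4.95%, without overlap (exact permutation test, two-sided, p = 0.1).

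**Figure D3:**
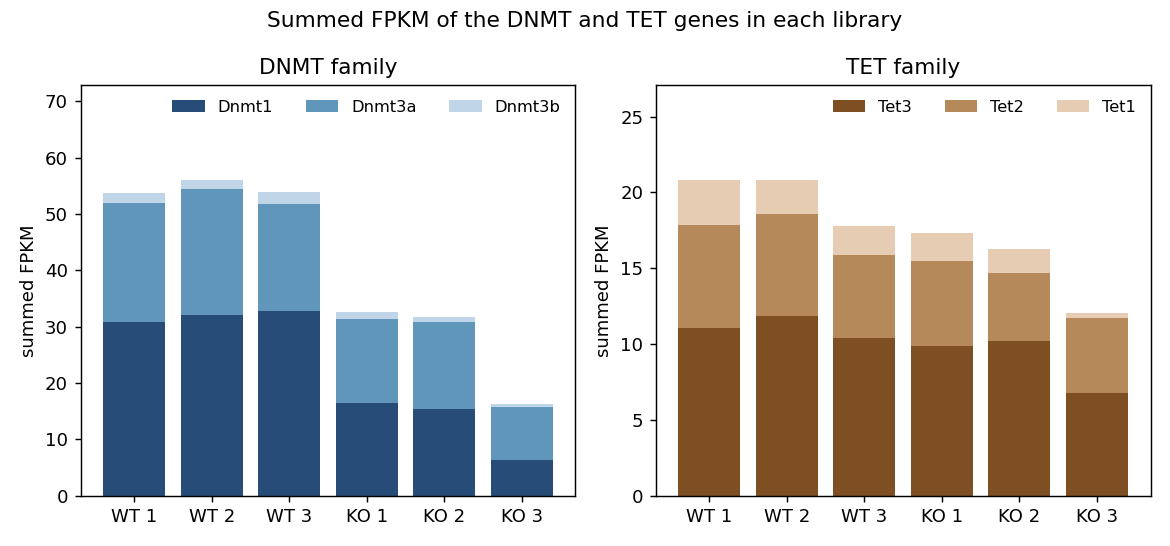
Summed FPKM of the DNMT genes (Dnmt1, Dnmt3a, Dnmt3b) and of the TET genes (Tet1, Tet2, Tet3) in each library. Bars start at 0 and are stacked by gene. The DNMT sum lies between 53.7 and 56.1 FPKM in WT and between 16.4 and 32.7 FPKM in KO, and the TET sum between 17.8 and 20.8 FPKM and between 12.1 and 17.4 FPKM.

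Genes that act with the members were grouped in lists. Of all genes tested, 16.6% were called lower and 16.4% higher, the shares to set beside each list count here and below. Those printed with values are the largest log2 fold changes in each direction among the called genes, and others were named after their values were seen. Of 12 partners of maintenance methylation, 5 fell and 0 rose (median log2 fold change -0.27). These were Cdca7, the partner of the chromatin remodeller Hells (-1.70, adjusted p = 0.0047), Lig1, the replicative ligase that binds UHRF1 (-1.62, adjusted p = 0.0060), Pcna, the replication clamp that binds DNMT1 (-1.08, adjusted p = 0.0070), and also Cdca7l and Hells. Lig1 and Pcna act in replication itself. Of 12 base excision repair genes, 7 fell and 0 rose (median -0.64), with Neil3 at -2.37 (adjusted p = 0.0048) and Ung at -1.56 (adjusted p = 0.0070). Neil3 and Ung encode glycosylases, which like TDG start the repair, so the list is not only of genes that act after TDG. Mbd4, counted again with the readers below, also fell. Of 10 genes listed with the methyl-CpG readers, among them the corepressor Trim28 and Mbd3, which are not themselves readers, 4 fell and 2 rose, the glycosylase Mbd4 the furthest down (-0.94, adjusted p = 0.0063), with Trim28 at -0.52 (adjusted p = 0.0343) and Zfp57 also lower. Zbtb38 (0.71, adjusted p = 0.0085) and Mbd2 (0.37, adjusted p = 0.0383) rose.

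Of 11 genes of the methyl donor cycle tested, 4 fell and 0 rose (median log2 fold change -0.17), against 16.6% and 16.4% of all genes tested. Among those that fell were Ahcy, which clears the product that inhibits methyltransferases (-0.66, adjusted p = 0.0058), and the one-carbon enzymes Shmt1 (-1.55, adjusted p = 0.0102) and Shmt2 (-0.55, adjusted p = 0.0097). The other gene that fell was Mat2b. Of 13 TET regulators and enzymes of the TET cosubstrate, 5 fell and 0 rose (median -0.10), against the same shares of all genes. Among those that fell were Idh2, which makes the 2-oxoglutarate that TET enzymes need (-1.19, adjusted p = 0.0086), Ebf1 (-0.75, adjusted p = 0.0052) and Cxxc5 (-0.50, adjusted p = 0.0069). The other two were Idh3g and Idh1. Of the Gadd45 family and its partner, Gadd45g rose (0.63 ± 0.112, adjusted p = 0.0094). Gadd45b was at 0.15 (adjusted p = 0.738) with 19.7 to 24.9 CPM in WT, 38.8 CPM in KO replicate 3 and 17.8 CPM in each of the other KO libraries. Without KO replicate 3 its direction turned, to -0.33 (adjusted p = 0.0303). Gadd45gip1, which encodes a binding partner of GADD45 proteins and is not a family member, was at -0.39 (adjusted p = 0.0564).

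Of 17 germline genes that promoter methylation silences in somatic cells, 12 were in the count table and 3 passed the filter. Brdt fell (-0.84, adjusted p = 0.0400), and the other 2 tested did not pass. The list summed to 7.36 to 9.84 CPM in WT and 4.29 to 6.13 CPM in KO, with every KO library below every WT library. As single genes, 28.2% of all genes tested had that order. Most of the sum came from Brdt (4.75, 4.03 and 4.03 CPM in WT) and Sycp1 (3.61, 2.18 and 2.75 CPM in WT). Genes below the filter went both ways. Dazl had 0, 0 and 0 counts in WT and 5, 0 and 2 in KO, and Tex19.1 had 2, 2 and 2 in WT and 0, 1 and 0 in KO.

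**Figure D4:**
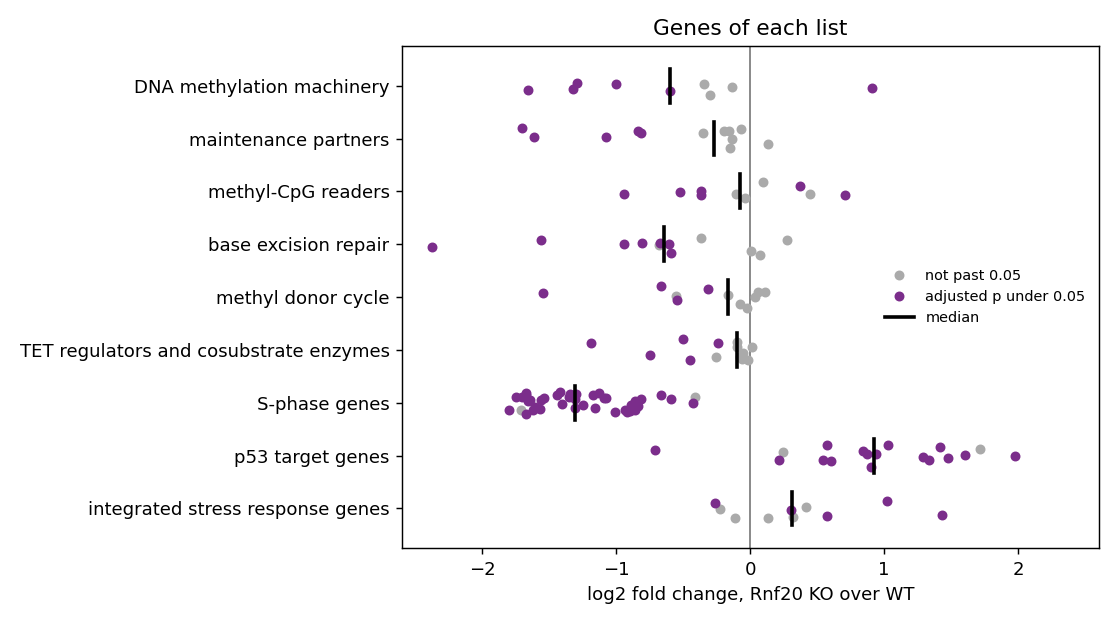
Log2 fold change of KO over WT for the genes of each list. Each point is 1 gene, purple points passed an adjusted p of 0.05, and black bars are medians. The S-phase genes lie below 0 with a median of -1.31, the p53 target genes mostly above 0 with a median of 0.92, and the members of the methylation group have a median of -0.60.

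Other genes moved with the members. Of 41 S-phase genes, 39 fell and 0 rose (median -1.31), led by Pola1 (-1.80, adjusted p = 0.0279), Rad51ap1 (-1.75, adjusted p = 0.0047) and Cdca7, and their sum went from 2005 to 2120 CPM in WT to 616 to 1153 CPM in KO. Pcna, Ung, Hells and Cdca7 are also in the lists above. In KO replicates 1, 2 and 3 the median difference of the S-phase genes from the WT mean was -0.90, -1.10 and -1.88 in log2 CPM, next to -0.94, -1.04 and -2.40 for Dnmt1. The part of the lower S-phase level in the values of Dnmt1 and Uhrf1 was not tested. Of the 41 S-phase genes, 19 had a lower log2 fold change than Dnmt1, 8 than Uhrf1, 22 than Tet1, 29 than Dnmt3b and 38 than Dnmt3a. No member, Uhrf1 included, was in the S-phase list used here.

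Of 18 p53 target genes, which Gadd45a also is, 15 rose and 1 fell (median 0.92, next to 0.91 for Gadd45a), with Pmaip1 at 1.98 (adjusted p = 0.0036), Cdkn1a at 1.47 (adjusted p = 0.0018) and Mdm2 at 1.60 (adjusted p = 0.0018). Their sum was 2487 to 2610 CPM in WT and 4980 to 6010 CPM in KO. The one that fell was Sesn1 (-0.71, adjusted p = 0.0210). Of 10 genes of the integrated stress response, 4 rose, with Atf3 (1.43, adjusted p = 0.0025), Ddit3 (1.02, adjusted p = 0.0065) and Sesn2 (0.57, adjusted p = 0.0068) ahead of Asns, and Ddit4 fell (-0.26, adjusted p = 0.0403). Sesn2 is counted among the genes that rose in both lists. The part of either list in the Gadd45a value was not tested.

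Fibroblast markers summed to 27881 to 30389 CPM in WT and 19808 to 34995 CPM in KO, with the lowest value in KO replicate 3, and 2 of 12, Pdgfra (-1.22, adjusted p = 0.0185) and Thy1 (-1.11, adjusted p = 0.0025), fell while Fbln2 rose (1.06, adjusted p = 0.0023). Markers of pluripotent cells were near 0 (2.85 to 2.99 CPM in WT and 2.33 to 2.66 CPM in KO over 10 genes). Macrophage markers summed to 48.8 to 97.6 CPM in WT and to 82.2, 52.9 and 264 CPM in KO replicates 1 to 3, with none of 9 tested past the threshold. Epithelial markers were at 57.6 to 61.5 CPM in WT and 22.5 to 78.2 CPM in KO, where Cldn3 fell (-2.16, adjusted p = 0.0061) and Krt19 rose (1.14, adjusted p = 0.0274), and germ cell markers at 4.89 to 6.99 and 3.09 to 4.87 CPM. No listed marker in the count table was at 0 in all libraries, and the part of these cell types in the members' values was not tested.

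The profiles most like each member were taken as the 3 genes at the smallest Euclidean distance in centred log2 CPM over the 6 libraries. For Dnmt1 these were Ceacam1, Ezh2 and Ect2 (0.132 to 0.147), and for Uhrf1 Cdca2, Ccna2 and Birc5 (0.085 to 0.121). For Tet1 they were Slc1a3, Celsr2 and Hmgb3, for Dnmt3a Mettl21b, Cep295 and Usp37, for Dnmt3b Eml1, Acss2 and Pllp, and for Gadd45a Ctsl, Tsku and Osmr. For members that did not pass the test they were Nucks1, Hnrnpa0 and Fsd1l (Tet2), Xpo4, Ttbk2 and Appl1 (Tet3), and Phlpp1, Qk and Rprd2 (Tdg).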

How the data were processed

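RNA from 3 WT and 3 Rnf20 KO samples was analysed. Groups and replicate numbers came from the sample labels. Per the submitters' processing notes and methods, the authors aligned reads to GRCm38/mm10 with HISAT2 2.1.0 and computed FPKM with Cufflinks 2.1.1. The authors deposited raw counts per gene for 16982 genes, whose counting program is not given in the sources used here, and FPKM for 12633 genes. Log2 fold changes and p-values (FDR) of the authors' own KO and WT comparison stand in the deposited table and were not used.

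From the counts, edgeR 4.0.16 in R 4.3.3 was used with TMM factors, filterByExpr at its defaults and the quasi-likelihood test with genotype alone, adjusted by the Benjamini-Hochberg method. CPM use TMM-normalized library sizes, and log2 CPM a pseudocount of 2 counts. A count of 3, the floor, equals about 0.142 to 0.143 CPM and covers counting error only. FPKM were summed by family and compared with an exact permutation test. The common dispersion was 0.0353. The scripts were tested on simulated data. Positions are from GENCODE on GRCm38. The named genes were all 10 members, Rnf20 and Ddx3y, up to 3 called genes per direction and list, the Gadd45 relatives and the nearest profiles, and further called genes of short lists were named after their values were seen. A gene that meets this rule is not reported here. Members and lists were chosen with earlier results of these data known. The alternatives were DESeq2 1.42.0, the exact test of edgeR, RLE factors, library size alone, other filters and thresholds, the replicate block, a Ddx3y term and each library left out.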

Additional observations from a re-analysis of the deposited data

How the results depend on the processing

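Across 126 recomputed values of the 9 tested members, 95 kept their direction and side of the threshold, 29 lost the call, 2 gained one and 0 changed sign. The main fit gave 5 members lower and 1 higher, and 0 past the study's thresholds. DESeq2 and edgeR's exact test each gave 3 past those thresholds, and library size only and no filter on low counts each gave 1. For the latter settings the share of all genes past them was not computed. Library size only gave 6 members lower and no filter on low counts gave 4, each with 1 higher. Among all genes, library size only called 2684 lower and 1750 higher of 13386, with a median log2 fold change of -0.060. No filter on low counts called 2071 lower and 2013 higher of 16982. With an adjusted p under 0.01 the counts were 0 lower and 0 higher, with 655 and 667 among all genes and 31 lower in the lists. The Ddx3y term gave 0 and 0, with 29 lower and 80 higher among all genes and 0 and 8 in the lists, against 65 and 23. With 1 library left out, 1 to 5 members were lower, 0 to 1 higher and 0 to 1 past the study's thresholds, and all genes called ranged from 702 to 3280 lower and from 694 to 3230 higher. The lists ranged from 30 to 76 lower. The cause of these shifts was not tested. With the Ddx3y term the genotype effect rested on KO replicate 2 alone, so the counts of that fit cannot show whether Ddx3y status has a part.

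The labels do not say whether the replicate numbers pair the libraries. Libraries of the same number had correlations of deviations from the group means of -0.066, 0.037 and 0.011 for numbers 1 to 3. The replicate block gave 4 members lower and 0 higher, with 1490 genes lower and 1385 higher among all genes.

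The share of Dnmt3b in the DNMT sum changed by -0.041 percentage points in KO and had the opposite sign by CPM per kilobase (0.057), with Dnmt3l added (0.032) and with single libraries left out (range -0.26 to 0.16). That of Tet2 changed by 1.92 points and by -1.76 to 4.88 with single libraries left out, negative without KO replicate 3. The 3 libraries per genotype limit the precision, and Dnmt3b and Dnmt3l rest on few counts.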
